A study of Mus musculus with 11 samples.

Results

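This account covers 43 genes of the presynaptic terminal, chosen by name: synapsins, vesicle membrane proteins, vesicular glutamate transporters, calcium sensors, SNARE proteins, complexins, the SNARE disassembly machinery, Rab3 GTPases, active zone scaffolds, neurexins and endocytic enzymes. All 43 were among the 36826 genes of the deposited table, and all 43 were among the 14428 genes that passed a filter on low values and were tested. Transcripts were sequenced in bulk from the hippocampus of mice 14 months of age. Of the 11 libraries, 4 came from APP/PS1 mice treated with a rotating magnetic field at 0.4 T (RMF), 3 from APP/PS1 mice given sham exposure (replicates 1, 3 and 4), and 4 from wild-type C57BL/6J mice (WT) of the same age. APP/PS1 mice carry transgenes of the amyloid precursor protein and presenilin 1 and form amyloid plaques with age. Field or sham exposure ran on 5 days a week for 12 months, at 3 h a day until 11 months of age and 6 h a day after that. The APP/PS1 line, its promoter, littermate status and the handling of WT mice are not stated in the labels, and RMF was not given to WT mice, so the field was compared only on the APP/PS1 background. Whether each library is a separate animal is not stated, and pooled RNA is mentioned in the protocol. The p-values therefore reflect only how much these libraries vary, and that variation may be technical.

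At a presynaptic terminal, vesicles are filled with transmitter, tethered to the active zone by scaffolds, primed by Munc13 and RIM proteins, and fused by the SNARE complex when synaptotagmins bind calcium. NSF and its adaptors then take the SNARE complex apart, and dynamin and synaptojanin serve the recovery of vesicle membrane. In the hippocampus most of these terminals are glutamatergic and use the vesicular transporter encoded by Slc17a7. Synaptic loss is a known feature of Alzheimer's disease and of amyloid mouse models.

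Library totals lay between 68124548 and 70786786 counts. The transgene check separated the genotypes: App was higher in sham than in WT libraries by 1.1 and in RMF than in WT libraries by 1.09 on the log2 scale. The cell type label reads neurons, yet no step that isolates neurons is recorded, and markers of astrocytes, microglia and oligodendrocytes were present in every library. The library labelled WT replicate 3 went against its hippocampus label. Its summed neocortex layer markers reached 1060.4 CPM, against 336 to 487 CPM elsewhere, and its summed dentate granule markers 397 CPM, against 685 to 958. Its summed CA1 to CA3 pyramidal markers were 517 CPM, against 848 to 955 CPM. It was the lowest library for 9 of 12 dentate granule and 9 of 12 pyramidal markers, and the highest for Calb1 (139 CPM) and Npnt (32.8 CPM) of the dentate list and Pcp4 (56.9 CPM) of the pyramidal list. Among the low ones, Prox1, Dsp, Lct and Fibcd1, which mark dentate granule and CA1 neurons, stood at 17.8, 1.57, 1.5 and 6.99 CPM there, and no other library had less than 107, 48.2, 50.3 and 87.8 CPM. The fit was therefore repeated without it, and values of both fits are given where they bear on a result. Sham replicate 4 stood apart to a lesser degree, with the largest share of mitochondrial transcripts, 9.53% against 5.76% to 7.39%.

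Levels are CPM (TMM-scaled counts relative to the total of the tested genes) in replicate order, and levels per length are the deposited FPKM. Differences are on the log2 scale with their SE, and adjusted p is from edgeR's quasi-likelihood test, adjusted by the Benjamini-Hochberg method across the 14428 genes, with a threshold of 0.05.

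Per length, the members spanned a wide range. Snap25, which encodes the plasma membrane SNARE SNAP-25, was the most abundant, with 274 ± 12.5 FPKM in RMF, 303 ± 11.4 in sham and 338 ± 87.2 in WT libraries (SD, n = 4, 3 and 4). Next in mean FPKM over the 11 libraries stood Cplx2 at 248, Slc17a7 at 207, Dnm1 at 198 and Syt1 at 191. At the low end stood Syn3 with 0.98, Unc13c with 2.79 and Unc13b with 3.85 FPKM. In some families 1 paralog took most of the level. Vamp2 held 91.5% to 94.1% of Vamp1 and Vamp2 FPKM, Slc17a7 95.1% to 98.5% of both transporters, Erc2 81.9% to 86.2% of both ELKS genes and Unc13a 82% to 90.2% of the Munc13 genes across all 11 libraries. Other families were divided more evenly: Sv2a held 45.7% to 57.9% and Sv2b 38.7% to 51.6% of SV2 FPKM, Napa 43.7% to 52% of Napa and Napb, and Syngr1 55.9% to 62.3% of both synaptogyrin genes. Syngr1 overlaps Rpl3 on the opposite strand and the use of strand in counting is not given, so its share is uncertain. Transcript levels were even over libraries: without the library labelled WT replicate 3, the highest library exceeded the lowest by under 1.5-fold in 32 of 43 members, with a median ratio of 1.34, and by over 2-fold in 5 (Slc17a6, Doc2a, Rab3b, Rims3 and Unc13c). With it, the counts were 17 and 9, and the median ratio was 1.55.

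**Figure D1:**
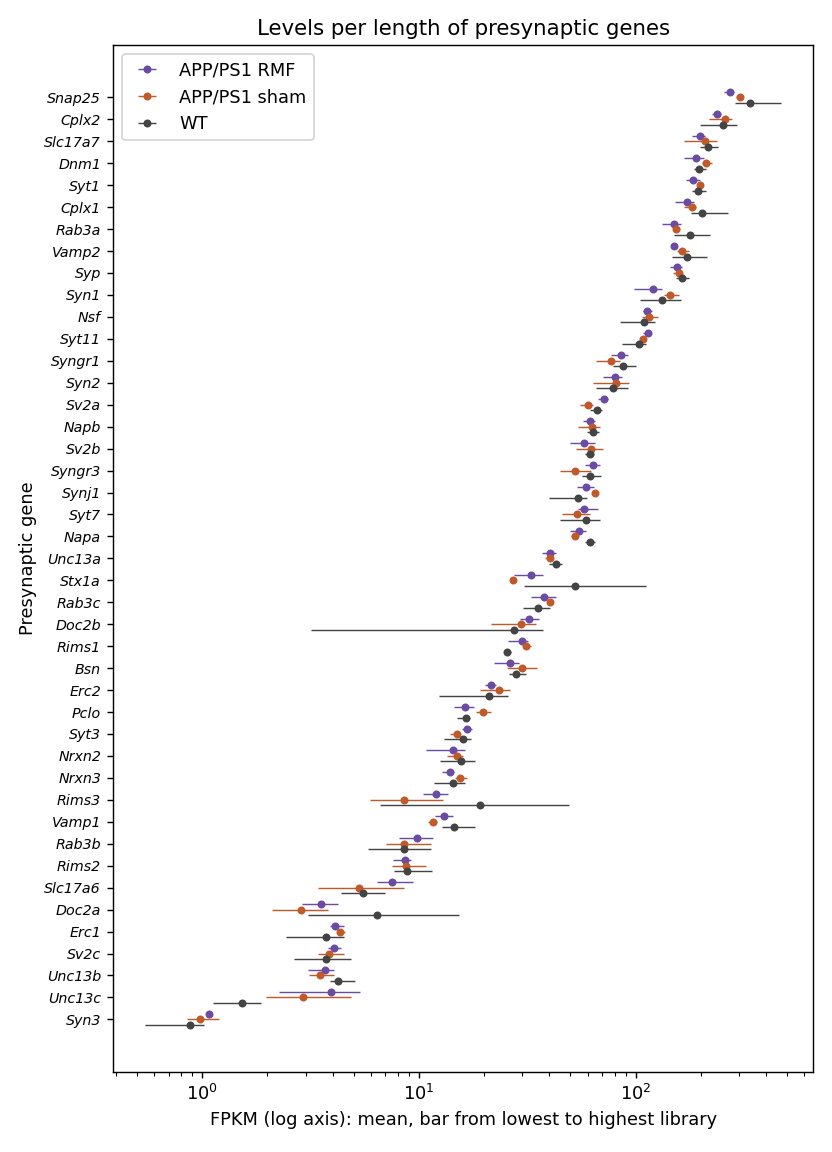
FPKM (log axis) of the 43 presynaptic genes, ordered by their mean over 11 libraries, with a point for the mean of APP/PS1 RMF, APP/PS1 sham and WT libraries and a bar from the lowest to the highest library. Snap25 lies highest at a mean of 305 FPKM and Syn3 lowest at 0.98, and the long WT bars of Stx1a, Doc2a, Doc2b and Rims3 come from the library labelled WT replicate 3.

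None of the 43 members passed the test in any of the 4 comparisons with edgeR. For sham against WT, edgeR called 0 of 43 members, while 0.929% of all 14428 genes were called. For RMF against WT it called 0 of 43, against 1.19% of all genes, and for all 7 APP/PS1 libraries against WT 0 of 43, against 1.43%. For RMF against sham 0 of 43 members were called, and 0% of all genes. At an unadjusted p under 0.05, which 13.2% of all genes reached for sham against WT, stood 6 of 43 members. The same counts were 5 of 43 for RMF against WT (8.4% of all genes), 3 of 43 for RMF against sham (6.89%) and 7 of 43 for APP/PS1 against WT (12%). These shares of members, 14%, 11.6%, 6.98% and 16.3% in the same order, lay near those of all genes. DESeq2 called 1 of 43 members for sham against WT (Rims1), 1 for RMF against WT (Unc13c), 0 for RMF against sham and both for APP/PS1 against WT. It also called more of all genes than edgeR did, and these member counts lay near its shares of all genes. Its totals over all genes are given in the last section.

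The median log2 difference of the 43 members was 0.032 for sham against WT, -0.037 for RMF against WT and -0.064 for RMF against sham, beside -0.0019, -0.0007 and -0.0021 over all genes. Members above 0 numbered 24, 17 and 18 of 43. Without WT replicate 3 the medians against WT were 0.012 for sham and -0.050 for RMF, with 24 and 13 members above 0, and the sign of the difference was the other one in 12 and 12 of 43 members. Within 1.25-fold of no difference lay 38, 38 and 40 members in the 3 comparisons with all libraries, 88.4%, 88.4% and 93% of them, against 80.8%, 86.6% and 88.7% of all genes. The 95% interval of a member's difference reached a median of 0.267, 0.246 and 0.266 to either side. These intervals are not adjusted for the number of genes. In a typical member, a difference of that size, and also a somewhat larger one, would therefore not pass the adjusted threshold. Since this is bulk tissue, fewer neurons and less transcript per neuron cannot be told apart. Summed pan-neuronal markers (15 of 15 present) were 4109 to 4585 CPM in RMF, 4537 to 4846 CPM in sham and 4326 to 4517 CPM in WT libraries. In this sum all sham libraries lay above all WT libraries by a narrow margin, and RMF libraries overlapped both. The mean log2 deviation of the same 15 markers overlapped between the groups, at -0.040 to 0.12 in sham and -0.081 to 0.13 in WT libraries. Of the 12 marker lists, 4 had sums that did not overlap between genotypes. Microglia markers summed to 597 to 713 CPM in RMF and 519 to 687 CPM in sham libraries, against 345 to 424 CPM in WT libraries. Astrocyte markers summed to 4738 to 5078 CPM in RMF and 4684 to 5199 CPM in sham libraries, against 3527 to 4314 CPM in WT libraries. Genes of liver summed to 111 to 206 CPM in RMF and 237 to 373 CPM in sham libraries, against 2.27 to 21.6 CPM in WT libraries, and genes of fast skeletal muscle to 5.49 to 7.83 CPM in RMF and 5.32 to 6.12 CPM in sham libraries, against 48.1 to 71.3 CPM in WT libraries. The part of these genes' sources in the members' levels was not tested.

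**Figure D2:**
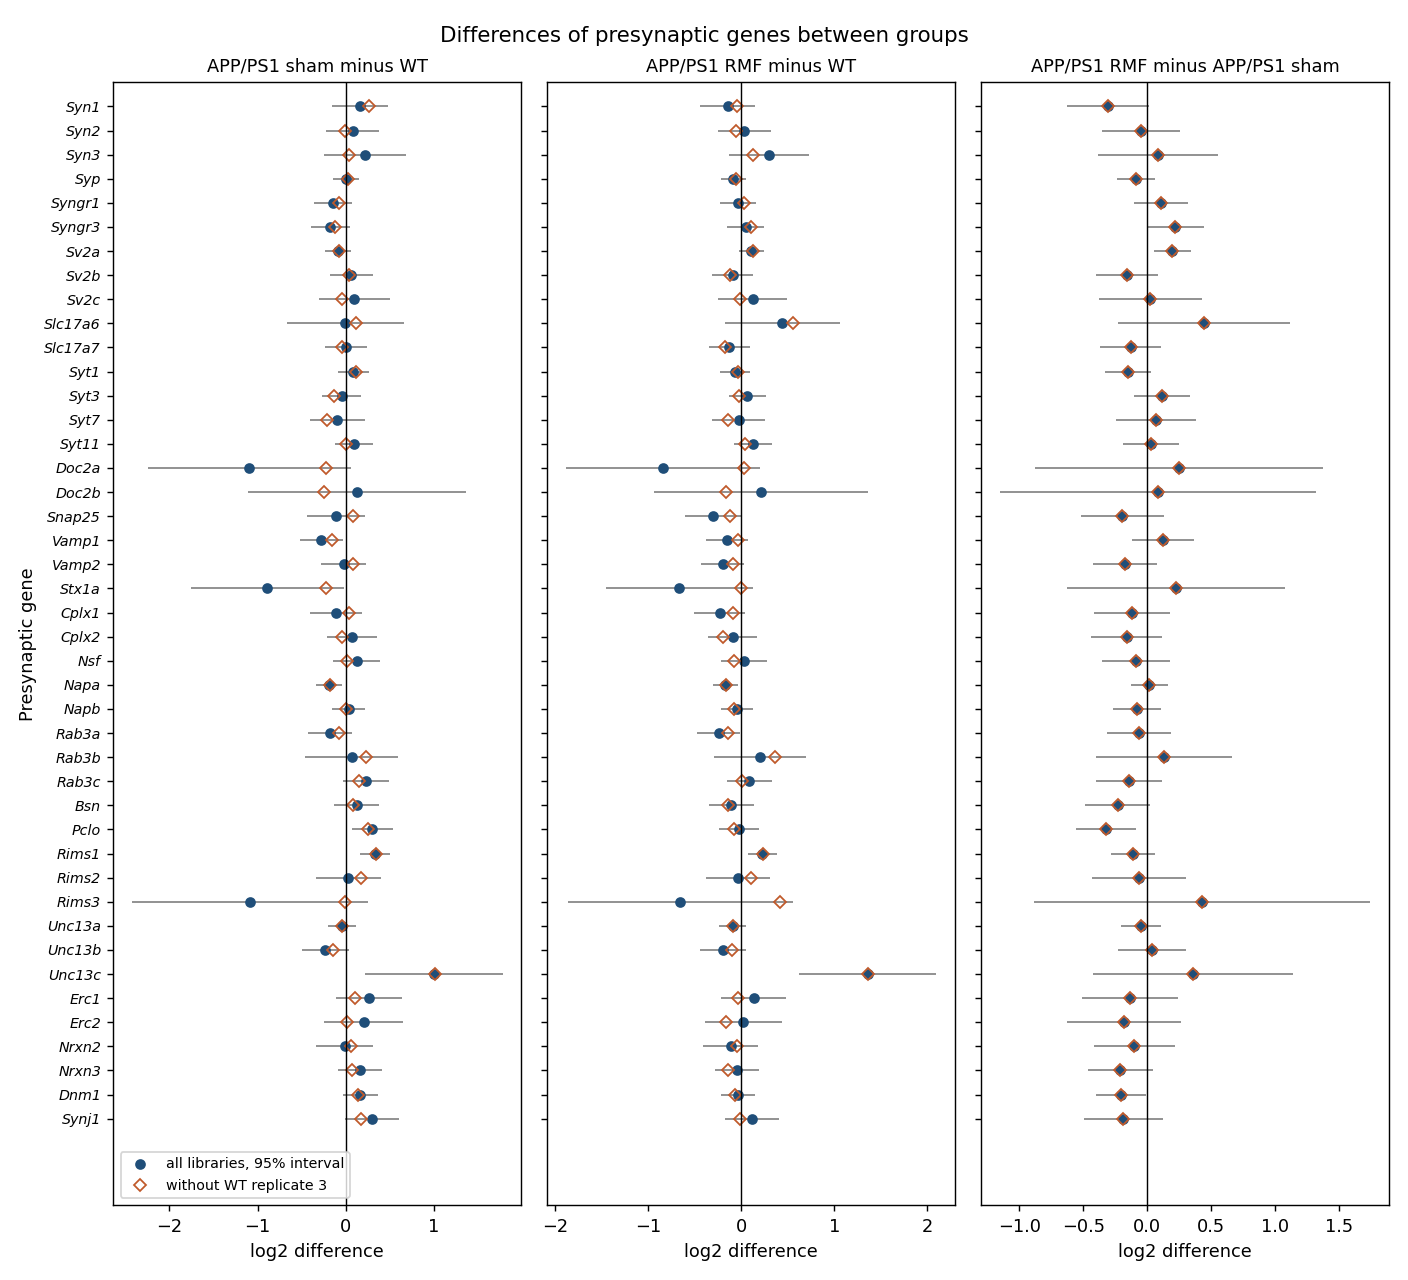
Log2 differences of the 43 presynaptic genes for APP/PS1 sham minus WT, APP/PS1 RMF minus WT and APP/PS1 RMF minus APP/PS1 sham, with points and 95% intervals from all 11 libraries and open diamonds for the fit without WT replicate 3. Most points lie near 0, Unc13c stands at 1.36 for RMF minus WT, and Doc2a, Stx1a and Rims3 lie far below 0 against WT only while WT replicate 3 is included.

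Rims1, Unc13c, Rims3 and Stx1a were picked to show the bases before their starts. The first pair had the smallest adjusted p between genotypes by edgeR, though neither passed. The second pair was picked for its levels in the library labelled WT replicate 3. Doc2a and Doc2b stood further out there than Stx1a but matched no RefSeq start. The 250 bases before the RefSeq start of each are shown 5′ to 3′ on the strand of the gene, from GRCm38.p6, with GC boxes (GGGCGG on either strand) in capitals. They lie at chr1:22806159-22806408 on the minus strand, chr9:73969038-73969287 on the minus strand, chr4:120854549-120854798 on the plus strand and chr5:135023232-135023481 on the plus strand.
Rims1: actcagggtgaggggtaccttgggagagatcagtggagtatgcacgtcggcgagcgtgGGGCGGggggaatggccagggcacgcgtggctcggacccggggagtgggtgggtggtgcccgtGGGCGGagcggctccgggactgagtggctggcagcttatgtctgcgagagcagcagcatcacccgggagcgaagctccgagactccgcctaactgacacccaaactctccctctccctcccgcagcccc
Unc13c: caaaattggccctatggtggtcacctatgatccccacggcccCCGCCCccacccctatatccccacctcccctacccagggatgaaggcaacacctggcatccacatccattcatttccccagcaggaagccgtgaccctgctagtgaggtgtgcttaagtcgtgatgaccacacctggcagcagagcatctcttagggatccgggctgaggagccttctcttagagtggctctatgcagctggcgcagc
Rims3: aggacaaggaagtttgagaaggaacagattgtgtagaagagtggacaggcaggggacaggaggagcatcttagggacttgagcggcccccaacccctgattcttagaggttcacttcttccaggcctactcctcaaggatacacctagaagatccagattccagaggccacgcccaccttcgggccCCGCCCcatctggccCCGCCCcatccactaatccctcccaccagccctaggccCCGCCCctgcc
Stx1a: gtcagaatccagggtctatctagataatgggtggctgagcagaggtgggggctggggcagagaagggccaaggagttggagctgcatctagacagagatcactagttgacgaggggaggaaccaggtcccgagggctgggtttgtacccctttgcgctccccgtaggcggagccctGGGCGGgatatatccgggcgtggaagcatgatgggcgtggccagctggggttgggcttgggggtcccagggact
These windows hold 2, 1, 3 and 1 GC boxes, and their GC content is 68%, 58.8%, 59.6% and 62%. Of 43 members, 34 matched the table, with 44 starts. A GC box lay in 24 of 44 member windows (54.5%) and in 32.7% of all 32851 windows, and the median GC content was 59.8% in member windows and 52.4% in all. The cAMP response element TGACGTCA lay in 1 member window (2.27%, the Syn1 promoter) against 1.55% of all, and the E-box CAGATG in 4 (9.09%) against 14.4%. Both strands were searched and none of the 3 motifs contains another. A match describes letters only.

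Among active zone genes, Rims1 had the smallest adjusted p for sham against WT and Unc13c for RMF against WT. Rims1 encodes RIM1, a scaffold that binds Rab3 and Munc13 and helps to place calcium channels at release sites (ENSMUSG00000041670, chromosome 1, 22356475 to 22844805 in the table's own coordinates, whose build is not named). Rims1 had 217, 257, 266 and 257 CPM in RMF libraries, 254, 280.0 and 274 CPM in sham libraries, and 209, 214, 219 and 213 CPM in WT libraries. All 3 sham libraries and 3 of 4 RMF libraries lay above every WT library, and RMF replicate 1 lay among WT. The log2 difference was 0.33 for sham against WT (SE 0.077, 1.26-fold, 95% interval 0.17 to 0.50, adjusted p = 0.0821) and 0.22 for RMF against WT (SE 0.071, adjusted p = 0.308). For APP/PS1 against WT it was 0.28 (adjusted p = 0.0666), the smallest adjusted p of any member. Without the library labelled WT replicate 3 the sham difference was 0.35 (adjusted p = 0.071), and without RMF replicate 1 the sham comparison passed (adjusted p = 0.0328 by edgeR), as did APP/PS1 against WT (adjusted p = 0.016). Leaving out any other single library gave no call of Rims1 by edgeR. RMF replicate 1 is in neither group of the sham comparison and bears on it only through the shared fit. In APP/PS1 against WT it is the APP/PS1 library that lay among WT.

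Unc13c encodes Munc13-3, a vesicle priming factor known in mice for its abundance in the cerebellum (ENSMUSG00000062151, chromosome 9, 73386704 to 73876248). It had 20.7, 38.5, 35.9 and 48.1 CPM in RMF libraries, 18.2, 18.3 and 47.3 CPM in sham libraries, and 16.9, 14.5, 14.2 and 10.3 CPM in WT libraries. Every APP/PS1 library lay above every WT library, yet sham replicate 4 and RMF replicates 2, 3 and 4 were high, whereas sham replicates 1 and 3 and RMF replicate 1 lay just above WT. The log2 difference was 1.36 for RMF against WT (SE 0.34, 2.56-fold, 95% interval 0.62 to 2.1, adjusted p = 0.112) and 1.0 for sham against WT (SE 0.35, 2.0-fold, adjusted p = 0.279). Without WT replicate 3 the differences were 1.37 for RMF (adjusted p = 0.15) and 1.01 for sham (adjusted p = 0.354). Without sham replicate 4 the sham difference was 0.38 and the RMF comparison passed (adjusted p = 0.022). The gene took 8.09% ± 2.04 of Munc13 FPKM in RMF, 6.3% ± 3.61 in sham and 3.18% ± 0.773 in WT libraries (SD). Among APP/PS1 libraries the 4 with high Unc13c also had the 4 highest sums of neocortex layer markers (11 of 11 present, none at 0 throughout), at 387 to 487 CPM against 336 to 363 CPM in the other 3. The library labelled WT replicate 3, with the highest such sum of all, had 14.2 CPM of Unc13c. WT replicates 1, 2 and 4 had sums of 364, 421 and 354 CPM, beside 16.9, 14.5 and 10.3 CPM of Unc13c. The part of these markers in the level of Unc13c was not tested.

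Pclo encodes piccolo, a giant scaffold of the active zone (ENSMUSG00000061601, chromosome 5, 14564932 to 14913473). It had 341, 419.6, 404 and 350.3 CPM in RMF libraries, 428, 452 and 539 CPM in sham libraries, and 392, 407, 343 and 397 CPM in WT libraries. All sham libraries lay above all RMF and all WT libraries, and RMF and WT libraries overlapped. The log2 difference was 0.30 for sham against WT (SE 0.11, adjusted p = 0.279) and -0.32 for RMF against sham (SE 0.11, adjusted p = 0.719). Its effective length, derived from the ratio of deposited counts to FPKM, is among the longest of the set, at 23222 bases. With the trend of differences with length removed the sham difference was 0.14 (adjusted p = 0.469).

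The main priming factor of excitatory terminals, Munc13-1, is encoded by Unc13a. It had 484, 528, 538 and 553 CPM in RMF libraries, 545, 549 and 535 CPM in sham libraries, and 517, 555, 567 and 602 CPM in WT libraries, with overlap between all groups and differences no larger than -0.091 (RMF against WT, 95% interval -0.24 to 0.055). Rims3, which encodes a short RIM protein without the Rab3 and Munc13 binding domains, had 86.7, 92.9, 113 and 104 CPM in RMF libraries, 49.2, 56.7 and 115 CPM in sham libraries, and 68.3, 99.4, 401 and 55.2 CPM in WT libraries. The library labelled WT replicate 3 held 5.4 times the mean of the other WT libraries, and sham replicate 4 was about the height of RMF. The log2 difference for sham against WT was -1.08 with that library and -0.014 without it, and for RMF against WT -0.65 and 0.42. Bsn, Rims2, Unc13b, Erc1 and Erc2, which encode bassoon, RIM2, Munc13-2 and the ELKS scaffolds, had differences between -0.23 and 0.26 in the 3 comparisons. Of the 10 active zone genes, 0 were called, with 7 above 0 for sham against WT, 4 for RMF against WT and 3 for RMF against sham.

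**Figure D3:**
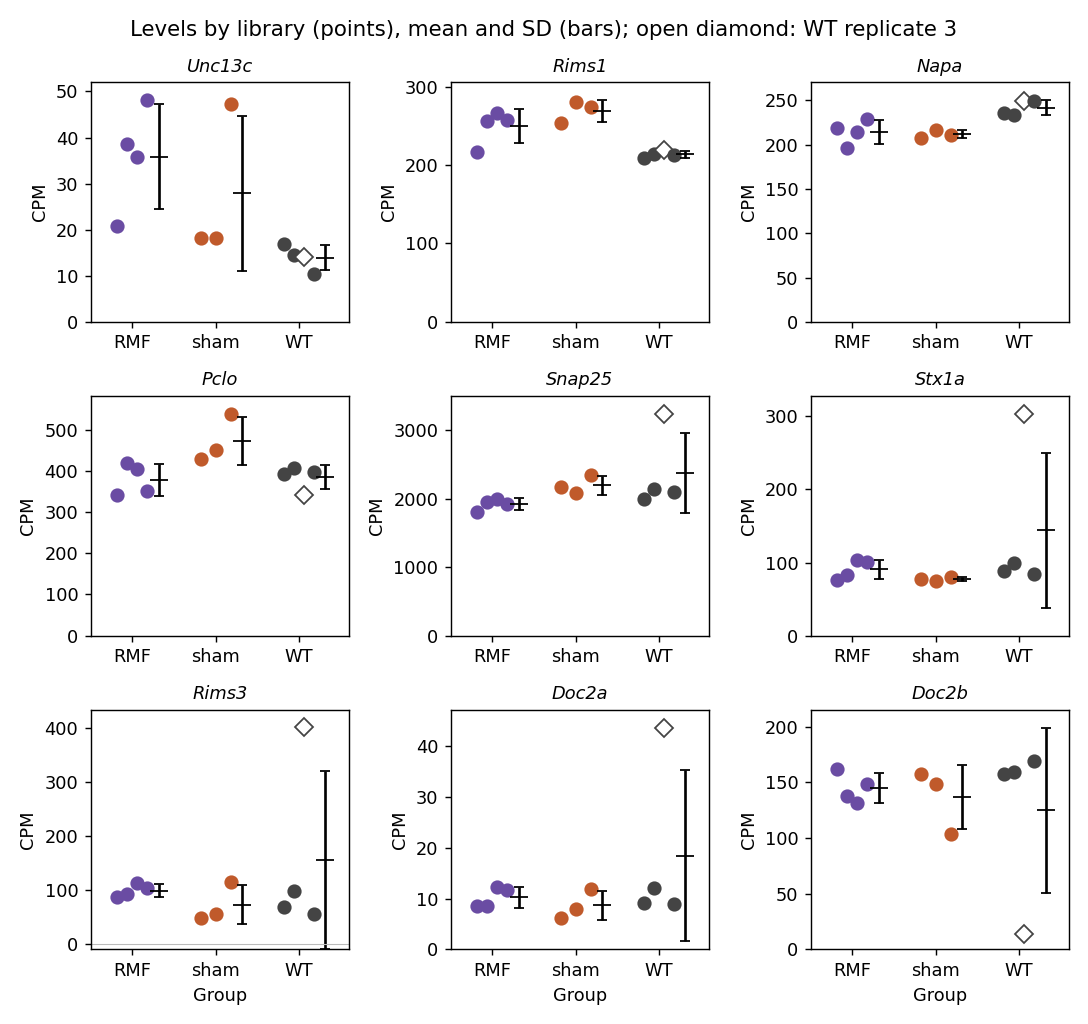
CPM of 9 presynaptic genes by library, with APP/PS1 RMF at the left, APP/PS1 sham in the middle and WT at the right of each panel, points for libraries, a bar for mean and SD, and an open diamond for WT replicate 3. Unc13c is above WT in all 7 APP/PS1 libraries and Napa below WT in all 7, while Stx1a, Rims3 and Doc2a are highest and Doc2b lowest in WT replicate 3.

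The fusion machinery came next. Snap25 had 1805, 1949.7, 2000.0 and 1927 CPM in RMF libraries, 2163, 2076 and 2351 CPM in sham libraries, and 2000.4, 2147, 3238 and 2100.3 CPM in WT libraries. Leaving aside the library labelled WT replicate 3, the 3 groups lay close together, with RMF libraries at the low end. For RMF against WT the log2 difference was -0.30 (adjusted p = 0.595) with that library and -0.12 (adjusted p = 0.633) without it. Stx1a encodes syntaxin-1A, the partner of SNAP-25 on the plasma membrane (ENSMUSG00000007207, chromosome 5, 135052336 to 135079954). It had 76.2, 82.9, 104 and 100.2 CPM in RMF libraries, 77.9, 75.1 and 79.9 CPM in sham libraries, and 88.9, 98.9, 303 and 84.6 CPM in WT libraries. Sham libraries lay below all WT libraries, and WT replicate 3 stood far above the rest, at 3.34 times the mean of the other WT libraries. The difference for sham against WT was -0.89 (95% interval -1.76 to -0.024, adjusted p = 0.366) and -0.23 without that library (adjusted p = 0.452). Vamp1 and Vamp2, the vesicle SNAREs, had ranges of 125 to 151 and 569.7 to 609 CPM in RMF, 124 to 130.0 and 621 to 744 CPM in sham, and 136 to 189 and 579 to 826 CPM in WT libraries. All 4 SNARE genes lay below 0 for both genotype comparisons with WT replicate 3 included; without it, Snap25 and Vamp2 lay above 0 for sham against WT at 0.077 and 0.086.

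Complexins clamp and promote fusion by binding assembled SNAREs. Cplx1 had 348, 396, 423 and 395 CPM in RMF libraries, 378, 432 and 462 CPM in sham libraries, and 412, 413, 593 and 417 CPM in WT libraries. Cplx2, the more abundant complexin per length in 10 of 11 libraries, had 1156, 1194, 1259.8 and 1224 CPM in RMF libraries, 1409.8, 1449 and 1195 CPM in sham libraries, and 1399, 1266, 989.9 and 1504 CPM in WT libraries. The exception was the library labelled WT replicate 3, in which Cplx1 was highest and Cplx2 lowest of all libraries and Cplx1 made up 57.4% of complexin FPKM, against 37.7% to 46.5% elsewhere. Log2 differences of both genes lay between -0.23 and 0.067 over the 3 comparisons.

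Napa encodes alpha-SNAP, which brings the ATPase NSF to used SNARE complexes (ENSMUSG00000006024, chromosome 7, 15832383 to 15851900). It had 218, 196, 214 and 228 CPM in RMF libraries, 208, 216 and 211 CPM in sham libraries, and 236, 233, 249 and 249 CPM in WT libraries. Every APP/PS1 library lay below every WT library, a pattern shown downward by 0.936% of all genes, and by 1 of 43 members. The log2 difference was -0.19 for sham against WT (SE 0.067, 0.876-fold, adjusted p = 0.276) and -0.17 for RMF against WT (SE 0.061, 0.886-fold, adjusted p = 0.40), and -0.18 for APP/PS1 against WT (adjusted p = 0.198). None of the 3 passed, and without WT replicate 3 the sham and RMF differences were -0.18 (adjusted p = 0.332) and -0.16 (adjusted p = 0.39). Nsf had 935, 967, 1026 and 949.8 CPM in RMF libraries, 994, 1112 and 987 CPM in sham libraries, and 1035, 967, 718 and 1070.3 CPM in WT libraries. The groups overlapped, and WT replicate 3 was the lowest library. Napb, the neuronal beta-SNAP gene, differed by 0.032, -0.045 and -0.078 for sham against WT, RMF against WT and RMF against sham.

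Genes of the synaptotagmin and Doc2 families, listed as calcium sensors, showed no group difference that passed. Syt1, the fast sensor on the vesicle, had 1477, 1635, 1708 and 1534 CPM in RMF libraries, 1682, 1731 and 1879 CPM in sham libraries, and 1559, 1681, 1786 and 1632 CPM in WT libraries. Sham libraries were at the upper end and RMF libraries at the lower end, with overlap. Doc2b, a high-affinity calcium sensor linked to spontaneous release, had 162, 138, 132 and 149 CPM in RMF libraries, 157, 149 and 104 CPM in sham libraries, and 158, 159.7, 14.1 and 169 CPM in WT libraries. Levels in 10 libraries lay between 104 and 169 CPM, and the library labelled WT replicate 3 held 0.0872 of the mean of the other WT libraries. The log2 difference for sham against WT was 0.13 with that library and -0.25 without it, and for RMF against WT 0.21 and -0.16. Its paralog Doc2a did the opposite there, with 43.6 CPM against 6.15 to 12.3 CPM elsewhere, so that Doc2a took 82.7% of Doc2 FPKM in that library and 5.69% to 15.1% in the others. Doc2a overlaps Ino80e on the other strand, whose counts were 281% of its own, and the use of strand in counting is not given, so its level is uncertain. Syt3, Syt7 and Syt11 had log2 differences between -0.098 and 0.12 with all libraries, and WT replicate 3 was the lowest library for each. Without it the differences for sham against WT were -0.14, -0.21 and 0.0068, and for RMF against WT -0.023, -0.14 and 0.038. In that fit all sham libraries lay below the WT libraries left for Syt3, and none of these differences passed.

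Synapsins tether vesicles in the reserve pool. Syn1 had 337, 420.3, 451 and 428 CPM in RMF libraries, 462, 475 and 583 CPM in sham libraries, and 354, 449, 543 and 467 CPM in WT libraries. RMF libraries lay below all sham libraries, WT libraries spanned both, and the log2 difference for RMF against sham was -0.31 (SE 0.15, adjusted p = 0.726). Syn3, the least abundant synapsin, had 13.5, 13.9, 13.9 and 13.8 CPM in RMF libraries, 11.4, 11.1 and 16.4 CPM in sham libraries, and 11.7, 13.1, 6.86 and 13.1 CPM in WT libraries. The RMF libraries lay within 13.5 to 13.9 CPM and just above all WT libraries, of which WT replicate 3 was lowest, and the difference for RMF against WT was 0.30 with it and 0.12 without it. Syn3 hosts Timp3 on the opposite strand, whose counts were 656% of its own, so its level is uncertain for the same reason as that of Doc2a. Syn1 overlaps Araf on the opposite strand, whose counts were 35.4% of those of Syn1, so the same holds for Syn1 to a lesser degree. Syn2 differed by 0.076, 0.030 and -0.046 in the 3 comparisons.

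Proteins of the vesicle membrane were next. Syp encodes synaptophysin, an abundant vesicle protein widely used as a marker of synapses. It had 777, 852, 879.8 and 831 CPM in RMF libraries, 891, 899 and 865 CPM in sham libraries, and 876, 843, 936 and 887 CPM in WT libraries. The 3 groups overlapped, and the 95% interval of its difference was -0.15 to 0.15 for sham against WT, -0.22 to 0.054 for RMF against WT and -0.23 to 0.065 for RMF against sham. Sv2a encodes the vesicle glycoprotein that binds the drug levetiracetam. It had 324, 337, 356 and 354 CPM in RMF libraries, 307, 305 and 285 CPM in sham libraries, and 331, 299, 329 and 312 CPM in WT libraries. RMF libraries lay above all sham libraries and overlapped WT, with a difference of 0.20 for RMF against sham (SE 0.066, 1.15-fold, adjusted p = 0.719). Sv2c, the rarest of the SV2 genes, had 38.8, 38.2, 44 and 42.5 CPM in RMF libraries, 34.7, 37.1 and 48.7 CPM in sham libraries, and 39.7, 35.1, 26.3 and 48.9 CPM in WT libraries, with groups that overlapped. Sv2b, Syngr1 and Syngr3, an SV2 and a pair of synaptogyrin genes, had differences between -0.18 and 0.22. Syngr1 overlaps Rpl3 on the opposite strand, whose counts were 87.3% of those of Syngr1. Sv2c overlaps Btf3l4b on the same strand, whose counts were 32.6% of those of Sv2c. The levels of Syngr1 and Sv2c are therefore uncertain too.

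**Figure D4:**
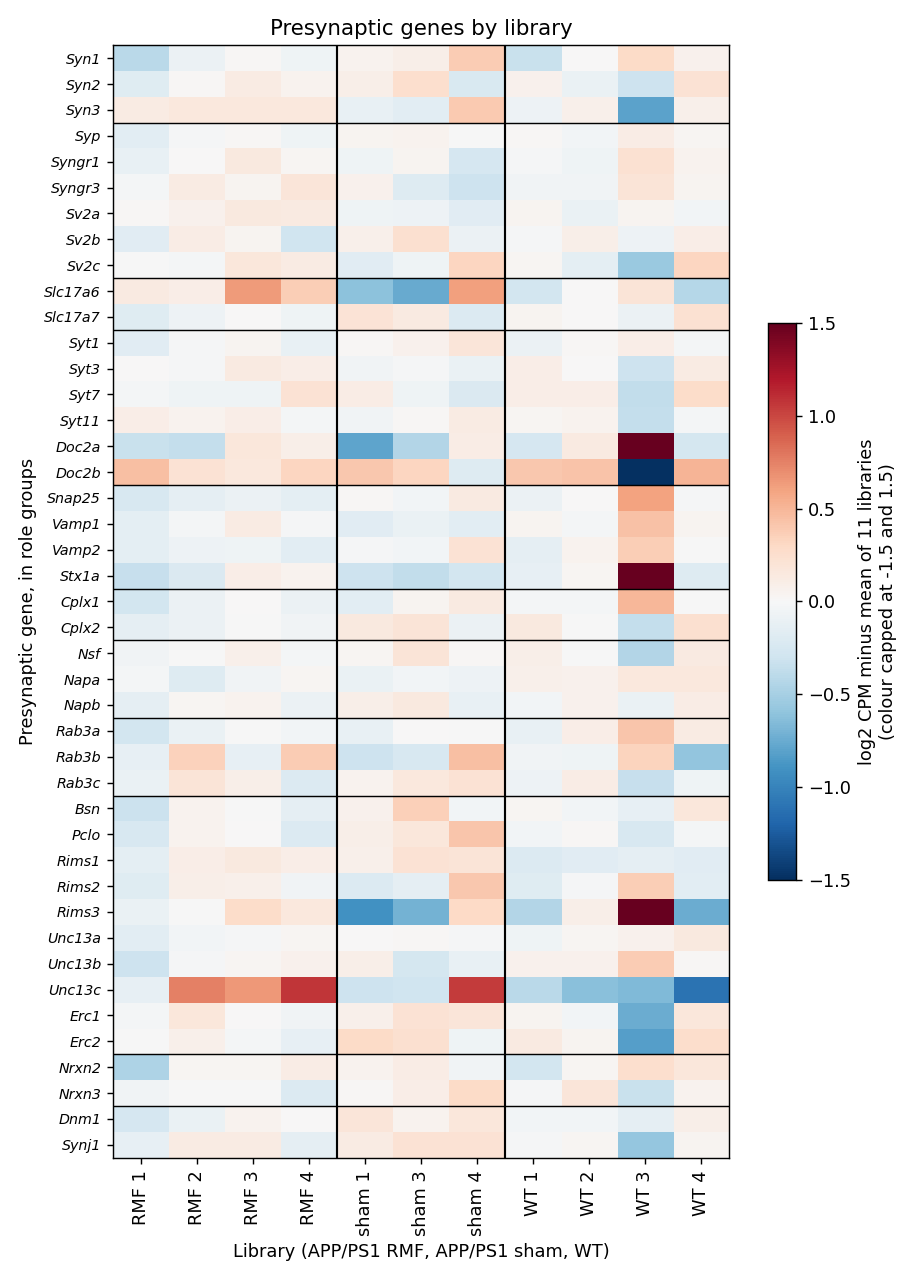
Log2 CPM of the 43 presynaptic genes in each of the 11 libraries minus the gene's mean over libraries, with rows in role groups, columns for APP/PS1 RMF, APP/PS1 sham and WT libraries from left to right, and colour capped at -1.5 and 1.5. WT 3 has the strongest colours in both directions, and Unc13c is red in sham 4 and in RMF 2, 3 and 4.

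Vesicular glutamate transporters load the transmitter. Slc17a7 (VGLUT1) had 1021, 1102, 1165 and 1106 CPM in RMF libraries, 1332, 1273 and 1001 CPM in sham libraries, and 1195, 1163, 1091 and 1353 CPM in WT libraries. Slc17a6 (VGLUT2), the transporter of subcortical inputs, had 36.6, 35.8, 52.3 and 43.3 CPM in RMF libraries, 21.6, 19.5 and 51.4 CPM in sham libraries, and 27.5, 33.6, 38.2 and 24.6 CPM in WT libraries. Sham replicate 4 had the lowest Slc17a7 and, with RMF replicate 3, the highest Slc17a6, while the other sham libraries had the lowest Slc17a6, so sham spanned the range of all groups. For Slc17a6 the difference for RMF against WT was 0.44 (95% interval -0.18 to 1.06) with overlap between the groups, and 0.56 without WT replicate 3 (adjusted p = 0.598), where every RMF library lay above the 3 WT libraries left, and for Slc17a7 it was -0.13 (95% interval -0.35 to 0.092). Summed markers of thalamus and other subcortical regions (14 of 14 present) were 153 to 164 CPM in RMF, 138 to 175 CPM in sham, where replicate 4 was highest, and 141 to 175 CPM in WT libraries. Of these markers, 8 passed the filter on low values. Their mean log2 deviation was -0.074, 0.16, 0.19 and 0.24 in RMF libraries and -0.37, -0.13 and 0.38 in sham libraries. In WT libraries it was -0.20, -0.099, 0.16 and -0.26. The part of these markers in the level of Slc17a6 was not tested.

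Rab3 GTPases ride on vesicles and bind RIM. Rab3a, the main form, had 308, 347, 372 and 362 CPM in RMF libraries, 343, 374 and 371 CPM in sham libraries, and 344, 399, 496 and 406 CPM in WT libraries. For RMF against WT its difference was -0.24 (adjusted p = 0.561), and -0.14 without WT replicate 3, which was the highest library. Rab3b had 29.6, 41.1, 29.6 and 42 CPM in RMF libraries, 25.8, 27.2 and 44.4 CPM in sham libraries, and 31.1, 30.8, 40.9 and 21.3 CPM in WT libraries, a roughly 2-fold range found within sham and within WT libraries as well as between groups. Rab3c differed by 0.23, 0.086 and -0.14 for sham against WT, RMF against WT and RMF against sham.

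Neurexins are presynaptic adhesion proteins that bind postsynaptic neuroligins. Nrxn2 had 156, 218, 218 and 231 CPM in RMF libraries, 222, 232 and 207 CPM in sham libraries, and 177, 218, 254 and 240.0 CPM in WT libraries, with RMF replicate 1 lowest and WT replicate 3 highest. Nrxn3 ranged over 166 to 190.0 CPM in RMF, 193 to 234 CPM in sham and 151 to 217 CPM in WT libraries. Vesicle recovery is served by the fission GTPase dynamin-1 and the lipid phosphatase synaptojanin-1. Dnm1 had 908, 1011, 1126 and 1091 CPM in RMF libraries, 1227, 1119 and 1220.4 CPM in sham libraries, and 1048, 1055, 988 and 1150.1 CPM in WT libraries. Synj1 had 450.4, 538, 534 and 447 CPM in RMF libraries, 536, 572 and 572 CPM in sham libraries, and 485, 503, 328 and 505 CPM in WT libraries. For RMF against sham the differences were -0.20 for Dnm1 (SE 0.089, adjusted p = 0.722) and -0.19 for Synj1 (adjusted p = 0.833). The sham libraries of Synj1 lay above all WT libraries, with a difference of 0.30 including WT replicate 3, the lowest, and 0.17 without it.

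Members whose groups did not overlap were counted next. For sham against WT these were 7 of 43, against 12.7% of all genes: Rims1, Pclo, Unc13c and Synj1 higher (6.67% of all genes) and Vamp1, Stx1a and Napa lower (6%). For RMF against WT they were 4 of 43, against 6.75%: Syn3 and Unc13c higher (4.21% of all genes) and Snap25 and Napa lower (2.54%). For RMF against sham they were 6 of 43, against 10.6%, with 1 member, Sv2a, higher against 5.93% of all genes. The 5 members lower in RMF, Syn1, Snap25, Vamp2, Pclo and Nrxn3, were 11.6% of members, against 4.72% of all genes lower without overlap, and edgeR called 0 of them. The shares in both directions together lay near the background in each comparison. For APP/PS1 against WT they were 2 of 43, against 3.2%, with Unc13c higher (2.27% of all genes) and Napa lower (0.936%). Without WT replicate 3 the counts were 10, 7, 6 and 3 of 43, against 16.6%, 12.8%, 10.6% and 4.82% of all genes. In that fit edgeR called 0 members in any comparison, against 1.06%, 1.41%, 0% and 1.49% of all genes. Its counts at an unadjusted p under 0.05 were 5 for sham against WT (11.7% of all genes), 4 for RMF against WT (9.83%), 9 for RMF against sham (11.5%) and 3 for APP/PS1 against WT (10.1%). Those 9 were Sv2a and Syngr3, higher in RMF, and Pclo, Syn1, Snap25, Vamp2, Nrxn3, Dnm1 and Synj1, lower in RMF, with adjusted p between 0.35 and 0.421 by edgeR. For that fit the shares of all genes at this unadjusted p were not split by direction, so no background stands beside the lean of the members to lower values. The comparisons with WT share the WT libraries, and those with sham share the sham libraries.

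The library labelled WT replicate 3 was the highest of 11 in 14 members and the lowest in 14, 65.1% of members at an extreme, against 51.3% of all genes. RMF replicate 1 was the lowest library in 13 members and the highest in 0 (30.2% and 0% of members, against 8.12% and 9.36% of all genes), beside the highest oligodendrocyte marker sum of any library, 9989 CPM against 2560.1 to 8614 CPM, and the lowest pan-neuronal sum, 4109 CPM. The part of these markers in the levels of RMF replicate 1 was not tested.

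Differences leaned with effective length, a value per gene derived from the ratio of deposited counts to FPKM, which need not be the length of the transcripts expressed. Members were long, with a median effective length of 7291 bases (2142 to 23543) against 4295 bases over tested genes. Across the 43 members, which are not independent replicates, Spearman's rho of the log2 difference with length was 0.447 for sham against WT, 0.206 for RMF against WT and -0.307 for RMF against sham. Over 14131 tested genes with a length it was 0.244, 0.10 and -0.215. The points of a comparison share the same libraries.

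**Figure D5:**
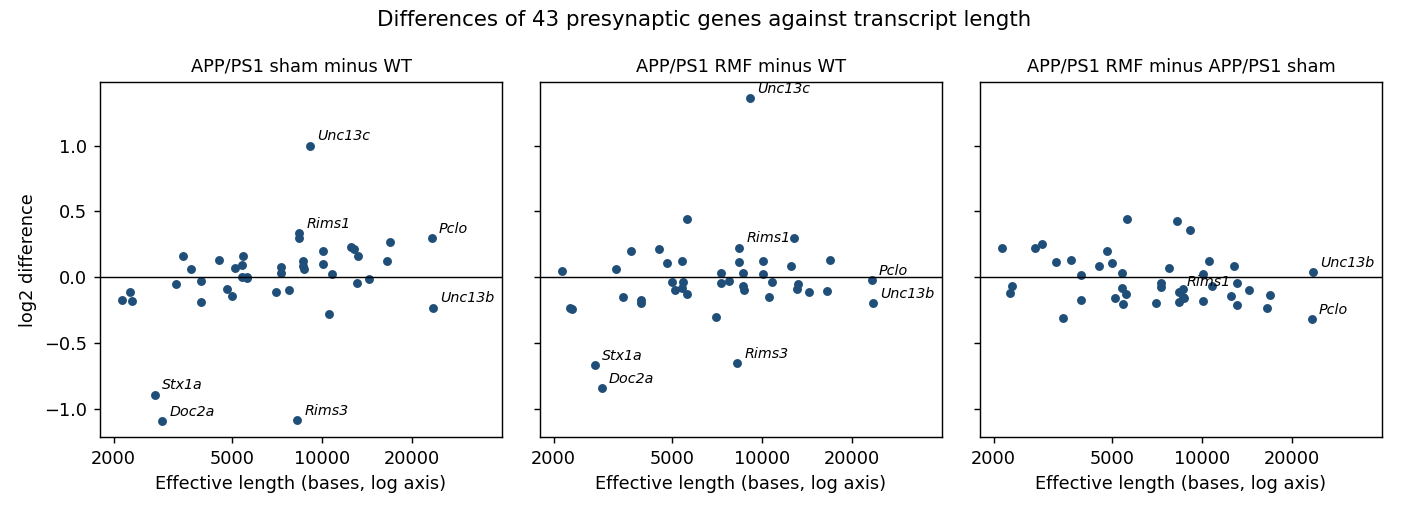
Log2 difference of each of the 43 presynaptic genes against its effective length in bases (log axis, from the ratio of counts to FPKM), for APP/PS1 sham minus WT, APP/PS1 RMF minus WT and APP/PS1 RMF minus APP/PS1 sham. Differences of sham from WT tend to be higher in longer genes and those of RMF from sham lower, with Spearman's rho of 0.447 and -0.307.

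A further list of 76 presynaptic genes was taken from textbook knowledge, with earlier results of these data known, to set the members in their pathway. Of these, 75 were in the table and 73 were tested. For sham, RMF and APP/PS1 against WT, edgeR called 0.929%, 1.19% and 1.43% of all genes, and 1 of 73 lay near these shares. That 1 gene was called in each of the 3 comparisons with WT and not for RMF against sham. It was Slc30a3, which encodes ZnT3, the transporter that loads zinc into vesicles of hippocampal mossy fibres. Slc30a3 had 59.8, 57.3, 60.9 and 68.7 CPM in RMF libraries, 58.7, 66.3 and 58 CPM in sham libraries, and 78.4, 78.3, 89.7 and 86.3 CPM in WT libraries. Every APP/PS1 library lay below every WT library, and RMF and sham libraries overlapped. Slc30a3 fell in RMF against WT libraries (0.741-fold, log2 difference -0.43, adjusted p = 0.0208) and in APP/PS1 against WT libraries (0.738-fold, adjusted p = 0.00704). It also fell in sham against WT libraries (adjusted p = 0.0336). Without WT replicate 3 the calls held (adjusted p = 0.0322, 0.0129 and 0.0473 in the same order). The sham call ended on leaving out any single one of sham replicates 1, 3 and 4, RMF replicates 1 and 3, or WT replicates 1, 2 and 4 (adjusted p between 0.0503 and 0.143). It also ended with sham and WT fitted alone (adjusted p = 0.132), with the replicate block (adjusted p = 0.0624), without WT replicate 3 and sham replicate 4 (adjusted p = 0.118) and with the length trend removed and WT replicate 3 left out (adjusted p = 0.0504). The RMF call ended without RMF replicates 1, 2 or 3 or WT replicate 4 (adjusted p between 0.0758 and 0.090). The call for APP/PS1 against WT held in all 23 alternatives, with adjusted p up to 0.0368. Of the 73 genes, 10 reached an unadjusted p under 0.05 by edgeR for sham against WT, beside 13.2% of all genes. Of these, 8 were higher and 2 lower, beside 6.69% and 6.53% of all genes. For RMF against WT the count was 6, beside 8.4%, with 2 higher (5.18% of all genes) and 4 lower (3.22%). For RMF against sham it was 4, beside 6.89%, with 1 higher (4.21% of all genes) and 3 lower (2.68%). Median log2 differences of the 73 genes were 0.013, -0.0017 and -0.043 in the same order.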

How the data were processed

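Counts and FPKM per gene were taken as the authors deposited them, in 1 table of 36826 genes. Cutadapt 1.9 trimmed reads, per the labels' protocols. HISAT2 2.0.4, StringTie 1.3.4d and edgeR are named in the submitters' processing notes, which also name a human build although the gene IDs are those of mouse. FPKM are the deposited values, scaled by the authors for gene length and library size. Neither the build of the table's coordinates nor the strandedness of the counting is stated in the labels. Of the columns of per-sample values, 2 matched no sample and were not used.

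Genes with at least 1 FPKM in at least 3 libraries were tested (14428). The deposited counts were scaled by TMM and fitted over 11 libraries in 3 groups with edgeR 4.0.16 (glmQLFit and glmQLFTest, R 4.3.3), with no covariate, and p-values were adjusted over all genes tested. Alternatives used DESeq2 1.42.0, limma 3.58.1 with library weights, other scalings and filters, a replicate block, a length correction and each library left out. The code was tested on simulated data. CPM plotted or printed are TMM-scaled. No libraries were duplicates.

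Values of every library are given for the 3 members with the smallest p in each comparison, and in each role group for the most abundant member and the one that varied most. Other members named, Doc2a, Vamp1, Vamp2 and Nrxn3 among them, were chosen after their values were seen. The members and lists were chosen with earlier results of these data known. Promoter windows are from RefSeq, GRCm38.p6, and were not joined to the table's coordinates.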

Additional observations from a re-analysis of the deposited data

Results flagged for a closer look

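Within a group of 4 libraries, 86 member and group pairs were checked for a single library far from the other 3, and 10 were found. The rule flags about 1 in 20 of independent normal values. Members share the same libraries, so the pairs are not independent, and the rate over all genes was not computed. Of these, 9 were in the library labelled WT replicate 3. It stood far above the other WT libraries for Stx1a (303 CPM against 84.6 to 98.9 CPM), Rims3 (401 CPM against 55.2 to 99.4 CPM), Snap25 (3238 CPM against 2000.4 to 2147 CPM) and Cplx1 (593 CPM against 412 to 417 CPM). The same held for Doc2a (43.6 CPM against 9.01 to 12 CPM), Vamp1 (189 CPM against 136 to 143 CPM) and Unc13b (118 CPM against 91.9 to 95 CPM). It stood far below them for Doc2b (14.1 CPM against 158 to 169 CPM) and Synj1 (328 CPM against 485 to 505 CPM). The other one was Syt7, a calcium sensor of slow release, in RMF replicate 4 (513 CPM against 422 to 433 CPM).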

How the results depend on the processing

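Calls of members depended on the tool and on single libraries. For sham against WT 1 member, Rims1, was called by DESeq2, by DESeq2 with WT replicate 3 left out (added after seeing the data) and by limma with library weights, and leaving out 1 library gave 0 to 1. For RMF against WT 1 member, Unc13c, was called with the 2 groups fitted alone, without WT replicate 3 and sham replicate 4, and by DESeq2, and 2 (Unc13c and Rims1) by limma with library weights, with 0 to 1 on leaving out 1 library. For APP/PS1 against WT the counts were 2 by DESeq2, 1 by DESeq2 with WT replicate 3 left out and 1 by limma with library weights, with 0 to 1 on leaving out 1 library. For RMF against sham 0 were called throughout. The cause was not tested. The members' median lay between -0.020 and 0.062 (sham against WT), -0.074 and -0.00081 (RMF against WT), -0.099 and -0.010 (RMF against sham), and -0.026 and 0.021 for APP/PS1 against WT. Of 2375 values of 25 members under alternatives, 2195 kept sign and side of the threshold and 165 differed in sign without a call. Another 15 newly passed with the same sign, and 0 with the other sign. As the main fit called 0 members, no call could be lost, and keeping the side of the threshold meant staying uncalled.

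Same-numbered libraries of different groups correlated between -0.337 and 0.272 in their deviations, and differently numbered ones between -0.277 and 0.261. With 3 or 4 libraries in a group, this check cannot decide whether the numbers pair libraries. With a replicate block 0 members were called, and genes called numbered 87 for sham, 112 for RMF and 126 for APP/PS1 against WT. Of the 14428 tested genes, calls for sham, RMF and APP/PS1 against WT numbered 345, 315 and 410 by DESeq2. By limma with library weights they numbered 252, 308 and 320. The members called by these tools, given above, lay near these shares of all genes. With no filter the calls numbered 304, 354 and 413, and with edgeR's own filter 392, 419 and 497. DESeq2 called 16 genes for RMF against sham, and 125 with WT replicate 3 left out. With sham and WT fitted alone 76 were called, and 89 without sham replicate 3.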
